A study of Mus musculus with 8 samples.

Results

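The Wnt genes described here are 51 ligands, receptors and modulators, chosen by symbol. Each of the 51 had a row among the 37583 genes of the deposited count files, matched by Ensembl identifier. They were measured by RNA-seq in 8 whole-kidney libraries, 4 labelled knockout and 4 labelled wildtype. The knockout mice carried b-actinCreERT2, a tamoxifen-responsive Cre recombinase driven by a beta-actin promoter, and TFAP2Bfl/fl, floxed alleles of the gene for the transcription factor AP-2 beta. The wildtype mice were control littermates. The labels used here do not say whether the controls carried Cre or floxed alleles or received an inducing agent, and they give no age, dose or time after induction. A Cre under this promoter is not restricted to 1 kidney cell type, so the tissue compared is the whole organ.

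Wnt proteins are secreted, lipid-modified ligands that bind frizzled receptors together with co-receptors. In the canonical branch this binding stops a complex of Axin, APC and GSK3 from marking beta-catenin for destruction, and beta-catenin then acts with TCF and LEF factors in the nucleus. Secreted frizzled-related proteins and Dickkopf proteins hold the signal back outside the cell, whereas R-spondins raise it by protecting frizzleds from the ubiquitin ligases RNF43 and ZNRF3. In the mouse kidney, Wnt9b and Wnt4 drive formation of nephrons, and Wnt7b, made by the collecting duct epithelium, is needed for the medulla to form.

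Gene counts per library were 13435113 to 17930347. Tfap2b itself had more reads in knockout-labelled libraries, at 237.0 to 266.5 CPM (a gene's counts relative to the scaled library total), against 94.3 to 110.5 CPM in wildtype-labelled ones. Reads from exons that Cre leaves in place are counted too, so this does not check the deletion, and all directions below are those of the libraries as labelled. Knockout 4 held 246.2 CPM over 9 adrenal genes, against at most 11.7 CPM in each other library. A circadian clock score, the mean log2 level of 10 output genes minus that of 5 genes of the opposite phase, was 1.10 in knockout 1 and -1.33 to -0.48 in the other knockout-labelled libraries, against 0.44 to 2.89 in wildtype-labelled ones.

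Sfrp1 had the largest fold change of the tested Wnt genes and was 6.40-fold lower in knockout-labelled libraries. Of the 51 genes, 47 had enough reads to be tested. The test was edgeR's quasi-likelihood test over all 15228 genes that passed the filter on low counts, with Benjamini-Hochberg adjustment and a threshold of 0.05. In it 3 rose (Fzd7, Frzb and Axin2), 4 fell (Sfrp1, Wnt7b, Fzd5 and Fzd8) and 40 did not pass. Thus 14.9% of the tested Wnt genes were called, against 11.9% of all genes tested (6.23% upward and 5.7% downward), a share near that of the whole table. The CPM of the groups did not overlap for the same 7 genes, 3 with knockout above (9.42% of all genes tested) and 4 with knockout below (9.05%), against 18.5% of all genes in either direction. The median log2 fold change was -0.03 over the 47 and 0.00 over all genes tested, with 21 positive and 26 negative values.

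**Figure D1:**
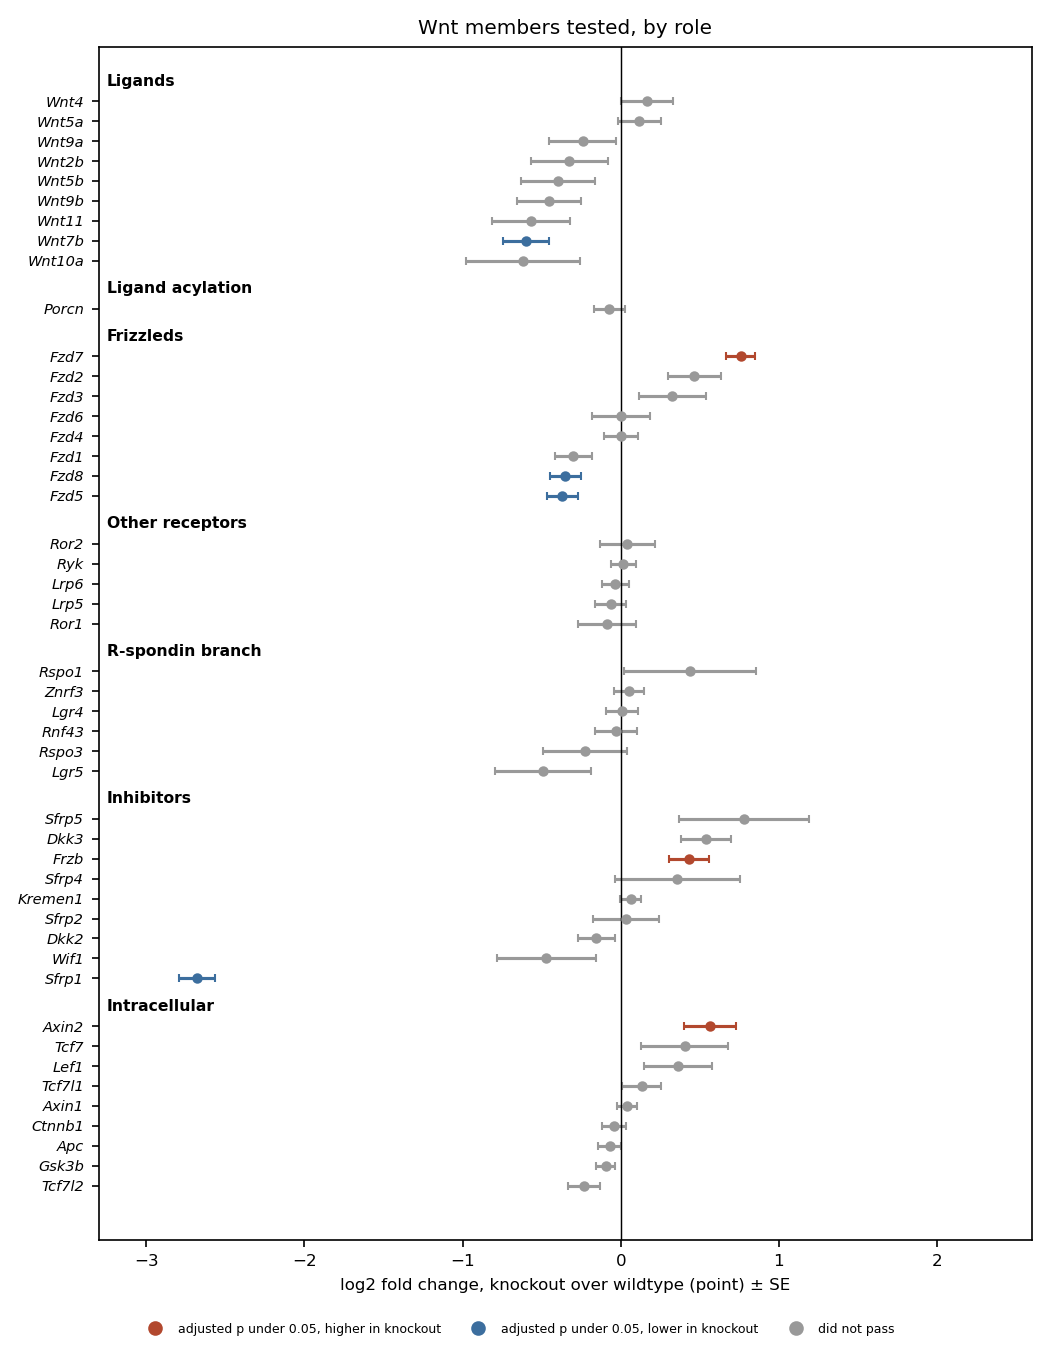
Log2 fold change of libraries labelled knockout over libraries labelled wildtype (points) with its standard error (bars) for the 47 tested Wnt genes, ordered by role. Coloured points passed the edgeR test (adjusted p under 0.05), 3 higher and 4 lower in knockout, and Sfrp1 at -2.68 stands apart at the left.

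Of 11 ligand genes, 9 were tested, 1 fell and none rose. Wnt7b, the ligand of the collecting duct, had 16.7, 17.8, 10.6 and 15.7 CPM in knockout-labelled libraries, against 22.2, 20.7, 24.1 and 24.9 CPM in wildtype-labelled ones. All 4 knockout values lay below the lowest wildtype value, and knockout 3 was the lowest. The log2 fold change was -0.60 ± 0.15 (SE; edgeR adjusted p = 0.0232). Wnt7b did not pass without knockout 4 (adjusted p = 0.0546), wildtype 3 (0.0596) or wildtype 4 (0.0603), with library totals as the scaling (0.0614), with a replicate block (0.0626), without knockout 1 and 4 together (0.0737) or with the clock score in the model (0.362). Its log2 fold change stayed between -0.70 and -0.38 in all 18 other settings. Of the exon bases of Wnt7b, 6.61% overlap the antisense gene AU022754 in the GENCODE M21 annotation, and the counts cannot separate the strands.

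Most markers of principal cells, the collecting duct cells that carry the sodium channel, were higher where Wnt7b was lower. Of 10 such markers 9 were tested, 7 rose and none fell, and their summed level was 1588 to 2467 CPM in knockout-labelled libraries, against 1112 to 1590 CPM in wildtype-labelled ones, ranges that meet at knockout 1 and wildtype 3. Tested markers that did not pass were Elf5 (log2 fold change -0.13) and the water channel gene Aqp4, which had 58.3, 69.9, 69.7 and 64.8 CPM in knockout-labelled libraries, against 92.6, 105.9, 315.4 and 175.7 CPM in wildtype-labelled ones. Every knockout value of Aqp4 lay below every wildtype value, as for Wnt7b (log2 fold change -1.39 ± 0.40 (SE), edgeR adjusted p = 0.067). Per 1000 CPM of these markers, Wnt7b stood at 7.41 ± 2.24 CPM in knockout-labelled libraries and at 17.5 ± 2.16 CPM in wildtype-labelled ones (SD, n = 4 each; exact permutation p = 0.0286, the smallest that 4 against 4 allows; adjusted p = 0.0429 over 6 such ratios). This ratio and the 5 others below were chosen after the values were seen. The Wnt7b groups were already apart and the marker sums mostly lay the other way, so this p is no further evidence. In whole tissue, fewer cells of a type and less RNA per cell cannot be told apart.

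The other 8 tested ligands did not pass. Wnt5a, the ligand with the highest CPM and a main driver of beta-catenin-independent signalling, had 31.6, 27.2, 22.7 and 27.6 CPM in knockout-labelled libraries, against 20.0, 27.5, 22.9 and 30.0 CPM in wildtype-labelled ones. These ranges overlap throughout (log2 fold change 0.12 ± 0.14 (SE), edgeR adjusted p = 0.628). Wnt4, of the nephron-forming pair, had 8.84 ± 1.07 and 7.87 ± 1.63 CPM (SD, n = 4 each; knockout, then wildtype). Wnt9b, its partner upstream, had 9.63 ± 2.59 CPM in knockout-labelled libraries and 13.2 ± 2.84 CPM in wildtype-labelled ones, a log2 fold change of -0.45 ± 0.20 (SE) with an edgeR adjusted p = 0.177. Wnt11, which marks ureteric tips in the embryo, had -0.57 ± 0.25 on the same scale (adjusted p = 0.167). Wnt10a, Wnt5b, Wnt2b and Wnt9a had log2 fold changes of -0.62, -0.40, -0.33 and -0.24. The median of the 9 tested ligands was -0.40, with 7 negative values, against 0.00 for all genes. With the clock score in the model it was -0.11, with 5 of 9 negative. The score itself differed between the groups, so its part and that of the labels cannot be told apart.

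Among the ligands, Wnt5b, Wnt7b and Wnt5a had the highest mean levels per kilobase of exon, at 4.35, 3.11 and 3.49 CPM per kilobase in knockout-labelled libraries and 5.70, 4.69 and 3.21 CPM per kilobase in wildtype-labelled ones. Wnt9b and Wnt4 followed at 2.13 and 2.11 in knockout-labelled libraries and 2.93 and 1.88 in wildtype-labelled ones, and the remaining 6 averaged at most 1.05. The wildtype ranges of Wnt5b (3.85 to 7.72) and Wnt7b (4.22 to 5.09) overlap, as do those of Wnt5a (2.55 to 3.84) and Wnt9b (2.47 to 3.83), so neighbours in this order are not resolved. Wnt6 and Wnt7a were too low to be tested, with 4 to 13 and 1 to 6 counts per library. Porcn, the acyltransferase that every Wnt needs for secretion, had 10.6, 10.9, 10.9 and 11.5 CPM in knockout-labelled libraries, against 12.4, 11.3, 11.9 and 10.6 CPM in wildtype-labelled ones (log2 fold change -0.07 ± 0.099 (SE), edgeR adjusted p = 0.684).

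Among the 10 frizzled receptors, 8 were tested, 1 rose and 2 fell. Fzd7 had 69.2, 66.4, 75.6 and 55.7 CPM in knockout-labelled libraries, against 37.8, 39.0, 42.6 and 38.3 CPM in wildtype-labelled ones. Every knockout value lay above every wildtype value. Its level was 1.69-fold higher in knockout-labelled libraries (log2 fold change 0.76 ± 0.093 (SE), edgeR adjusted p = 0.000598). Fzd7 passed in all 18 other settings, with log2 fold changes of 0.69 to 0.86. Some genes of stroma were higher in the same libraries. Of 10 stromal markers 5 rose, the fibroblast collagens Col1a1, Col1a2 and Col3a1 with Dcn and Lum, and none fell. The other 5 did not pass, with log2 fold changes of 0.29 for Pdgfra, 0.20 for Pdgfrb, 0.29 for Postn, 0.20 for Meg3 and -0.07 for Acta2. The summed level of all 10 was 710.5 to 1106 CPM in knockout-labelled libraries, against 434.2 to 574.1 CPM in wildtype-labelled ones. Per 1000 CPM of stromal markers, Fzd7 stood at 79.0 ± 20.8 CPM in knockout-labelled libraries and at 80.7 ± 14.3 CPM in wildtype-labelled ones (SD, n = 4 each; exact permutation p = 0.914). This ratio depends on the markers summed. The 5 that rose had larger log2 fold changes than Fzd7, and the 5 that did not pass had smaller ones. Whether stroma has a part in the change of Fzd7 was not tested.

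Fzd5 and Fzd8, a closely related pair of frizzleds, both fell. Fzd5 had 23.0, 21.8, 22.4 and 19.2 CPM in knockout-labelled libraries, against 24.2, 29.8, 30.7 and 26.9 CPM in wildtype-labelled ones (log2 fold change -0.37 ± 0.097 (SE), edgeR adjusted p = 0.0316). Fzd8 had 15.9, 13.1, 16.2 and 13.9 CPM in knockout-labelled libraries, against 19.1, 18.05, 19.4 and 18.8 CPM in wildtype-labelled ones (-0.35 ± 0.097, adjusted p = 0.038). The groups did not overlap for either gene, although for Fzd5 knockout 1 and wildtype 1 lay close together. Both calls were fragile. Fzd5 did not pass without knockout 2, 3 or 4 (adjusted p = 0.0766, 0.054 and 0.0874) or without wildtype 2, 3 or 4 (0.0779, 0.0895 and 0.0544), and Fzd8 not without knockout 2 or 4 (0.107 and 0.0985) or any wildtype library (0.0591 to 0.0911). With library totals as the scaling, with a replicate block, with the clock score in the model or without knockout 1 and 4 together, neither passed (Fzd5 adjusted p = 0.104, 0.0807, 0.485 and 0.131, Fzd8 0.105, 0.0843, 0.312 and 0.124). Fzd8 also did not pass with upper quartile factors (0.0537) or without the filter on low counts (0.0528). Of the exon bases of Fzd5, 17.8% overlap the unclassified transcript Gm38058 on the other strand.

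Fzd4, which also serves as a receptor for norrin in blood vessels, had the highest CPM of the frizzleds. It had 107.3, 91.5, 93.3 and 79.4 CPM in knockout-labelled libraries, against 80.8, 85.8, 97.9 and 106.9 CPM in wildtype-labelled ones (log2 fold change 0.00 ± 0.11 (SE), edgeR adjusted p = 1). The groups covered nearly the same range. Fzd1, the most abundant frizzled per kilobase, had 74.5 ± 11.7 CPM in knockout-labelled libraries and 91.7 ± 11.3 CPM in wildtype-labelled ones (SD, n = 4 each; edgeR adjusted p = 0.126). It passed as lower without knockout 1 (log2 fold change -0.41, adjusted p = 0.0226, with 0.0226 to 0.914 over the 18 settings). Fzd2, at 9.69 ± 2.34 and 7.01 ± 0.52 CPM (knockout, then wildtype; adjusted p = 0.0988), passed as higher without knockout 3 (adjusted p = 0.0413, with 0.0413 to 0.49 over the 18 settings). Fzd3 and Fzd6 had log2 fold changes of 0.33 and 0.00. Fzd9 and Fzd10 were not tested, with 1 to 13 and 0 to 2 counts per library. The sum over the class was 276.8 to 360.9 CPM in knockout-labelled libraries, against 282.2 to 329.0 CPM in wildtype-labelled ones.

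None of the 5 other receptors and none of the 6 genes of the R-spondin branch passed, whether upward or downward. None of the 11 had an unadjusted p under 0.05 either, and none was called in any of the 18 other settings, DESeq2 and limma voom included. Lrp6, the co-receptor of canonical signalling, had 206.9, 203.0, 208.0 and 191.2 CPM in knockout-labelled libraries, against 180.5, 202.8, 209.7 and 235.2 CPM in wildtype-labelled ones, groups that overlap (log2 fold change -0.03 ± 0.084 (SE), edgeR adjusted p = 0.835). Its paralog Lrp5 had -0.06 ± 0.099, and the receptors of beta-catenin-independent signals Ror1, Ror2 and Ryk had -0.09, 0.04 and 0.01. Lgr4, an R-spondin receptor, had 201.9, 237.2, 259.1 and 204.5 CPM in knockout-labelled libraries, against 236.6, 251.0, 206.6 and 203.5 CPM in wildtype-labelled ones (log2 fold change 0.01 ± 0.10 (SE), edgeR adjusted p = 0.971). Per kilobase, Lgr4 averaged 38.4 CPM in knockout-labelled libraries and 38.1 CPM in wildtype-labelled ones, while Lgr5, the stem cell paralog, averaged 0.155 and 0.216. The ubiquitin ligases Rnf43 and Znrf3 had log2 fold changes of -0.03 ± 0.13 and 0.05 ± 0.096 (SE), and the ligands Rspo1 and Rspo3 had 0.44 ± 0.42 and -0.23 ± 0.26.

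Of 9 inhibitor genes, all tested, 1 fell and 1 rose. Sfrp1 encodes a secreted frizzled-related protein, a decoy with a frizzled-like domain that binds Wnt proteins outside the cell. Sfrp1 (ENSMUSG00000031548) had 58.2, 47.1, 42.0 and 49.1 CPM in knockout-labelled libraries, against 351.2, 269.9, 313.2 and 321.9 CPM in wildtype-labelled ones. The highest knockout value is far below the lowest wildtype value, and each group is narrow. The log2 fold change was -2.68 ± 0.12 (SE; edgeR adjusted p = 4.22e-07). It passed in all 18 other settings, with log2 fold changes of -2.82 to -2.56 and a largest adjusted p of 3.45e-05.

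Markers of the thick ascending limb and the distal convoluted tubule, the neighbouring segments that carry the furosemide- and thiazide-sensitive salt transporters, also had lower summed levels in the same libraries. Of 10 thick ascending limb markers 8 fell and none rose, and their summed level was 6733 to 7748 CPM in knockout-labelled libraries, against 12911 to 15756 CPM in wildtype-labelled ones. Of 10 distal convoluted tubule markers 9 were tested, 7 fell and none rose, and the sums were 2054 to 2259 CPM in knockout-labelled libraries, against 3890 to 4334 CPM in wildtype-labelled ones. Pvalb, a calcium-binding protein of the distal convoluted tubule, had a larger fold change than Sfrp1, with 2.05, 1.23, 4.31 and 1.16 CPM in knockout-labelled libraries, against 187.6, 123.8, 49.1 and 177.2 CPM in wildtype-labelled ones (log2 fold change -5.90 ± 0.63 (SE), edgeR adjusted p = 0.00227). The other 14 markers of these lists that fell had log2 fold changes of smaller size than that of Sfrp1. The defining transporters Slc12a1 and Slc12a3 were detected in every library, and Fgf13, the untested marker, had no count in knockout 3. Per 1000 CPM of thick ascending limb markers, Sfrp1 stood at 6.91 ± 0.67 CPM in knockout-labelled libraries and at 22.1 ± 1.82 CPM in wildtype-labelled ones, a ratio of 0.313. Per 1000 CPM of distal convoluted tubule markers it stood at 23.2 ± 3.72 and 76.8 ± 11.8 CPM (knockout, then wildtype), a ratio of 0.303 (SD, n = 4 each; exact permutation p = 0.0286 and adjusted p = 0.0429 for both ratios). The Sfrp1 groups lay further apart than either marker sum, so these ratios had to separate and their p-values are no further evidence. Whether cells of these segments make Sfrp1 in these kidneys was not tested.

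Frzb, a frizzled-related decoy also known as Sfrp3, rose. It had 29.1, 27.2, 25.3 and 26.6 CPM in knockout-labelled libraries, against 15.7, 24.8, 18.6 and 21.0 CPM in wildtype-labelled ones. The groups were separated only narrowly, between 25.3 CPM in knockout 3 and 24.8 CPM in wildtype 2. The log2 fold change was 0.43 ± 0.13 (SE; edgeR adjusted p = 0.0469). The call was lost without any 1 knockout library (adjusted p = 0.0834, 0.107, 0.0622 and 0.0933 without knockout 1, 2, 3 and 4) and without wildtype 1, 3 or 4 (0.0881, 0.115 and 0.0767). It was also lost with a replicate block (0.0882), with the clock score in the model (0.0911) and without knockout 1 and 4 together (0.204). Against the sum of the stromal markers Frzb was lower, at 31.6 ± 4.25 CPM per 1000 CPM of markers in knockout-labelled libraries and 40.1 ± 3.59 in wildtype-labelled ones (SD, n = 4 each; exact permutation p = 0.0286, adjusted p = 0.0429). This direction depends on the markers summed. The 5 that rose had larger log2 fold changes than Frzb, and the 5 that did not pass had smaller ones.

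The remaining 7 inhibitors did not pass. Dkk3, a divergent member of the Dickkopf family, had 43.6, 62.2, 58.0 and 46.6 CPM in knockout-labelled libraries, against 28.0, 36.5, 34.1 and 46.2 CPM in wildtype-labelled ones. Wildtype 4 reached into the knockout range. The log2 fold change was 0.54 ± 0.16 (SE; edgeR adjusted p = 0.0567). Dkk3 passed as higher in 6 other settings, which were DESeq2 (adjusted p = 0.0117), library totals as the scaling (0.0235), upper quartile factors (0.0437), without knockout 1 (0.04), without wildtype 4 (0.0187) and without knockout 1 and 4 together (0.0436). Its adjusted p ran from 0.0117 to 0.46 over the 18 settings. Dkk2, which binds the LRP co-receptors, stood at -0.15 ± 0.12 on the log2 scale (adjusted p = 0.429), and Kremen1, a membrane receptor for Dickkopf proteins, had 0.06 ± 0.066 (adjusted p = 0.576). The low-count genes Sfrp2, Sfrp4, Sfrp5 and Wif1, each averaging under 5 CPM, had 0.03 ± 0.21, 0.36 ± 0.40, 0.78 ± 0.41 and -0.47 ± 0.31. Sfrp5 passed as higher without wildtype 2 (log2 fold change 1.29, adjusted p = 0.0482, with 0.0482 to 0.502 over the 18 settings).

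The makeup of the inhibitor class differed between the groups. Per kilobase of exon, Sfrp1 made up 21.6%, 19.0%, 16.9% and 19.6% of the class sum in knockout-labelled libraries, against 68.9%, 60.2%, 64.6% and 62.7% in wildtype-labelled ones. Dkk3 then had the highest mean, 15.7 ± 2.66 CPM per kilobase in knockout-labelled libraries, where Sfrp1 stood at 11.2 ± 1.55 and Dkk2 at 11.0 ± 1.96 and the ranges of all 3 overlapped between neighbours. In the libraries labelled wildtype Sfrp1 led at 71.8 ± 7.69 CPM per kilobase, and Dkk2 (12.2 ± 0.55) and Dkk3 (10.8 ± 2.25) followed with overlapping ranges. The 8 inhibitors other than Sfrp1 summed to 191.7, 178.0, 187.1 and 183.9 CPM in knockout-labelled libraries, against 149.0, 164.4, 159.3 and 176.4 CPM in wildtype-labelled ones. In the frizzled class, Fzd7 made up 24.2% ± 2.58 in knockout-labelled libraries and 14.6% ± 0.69 in wildtype-labelled ones, and Fzd1 made up 29.1% ± 2.39 and 36.4% ± 2.72 (SD, n = 4 each; knockout, then wildtype). Shares within a class are tied, so a change in any gene moves the shares of the rest. The CPM of Fzd1 overlapped between the groups, and Fzd1 did not pass (edgeR adjusted p = 0.126).

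**Figure D2:**
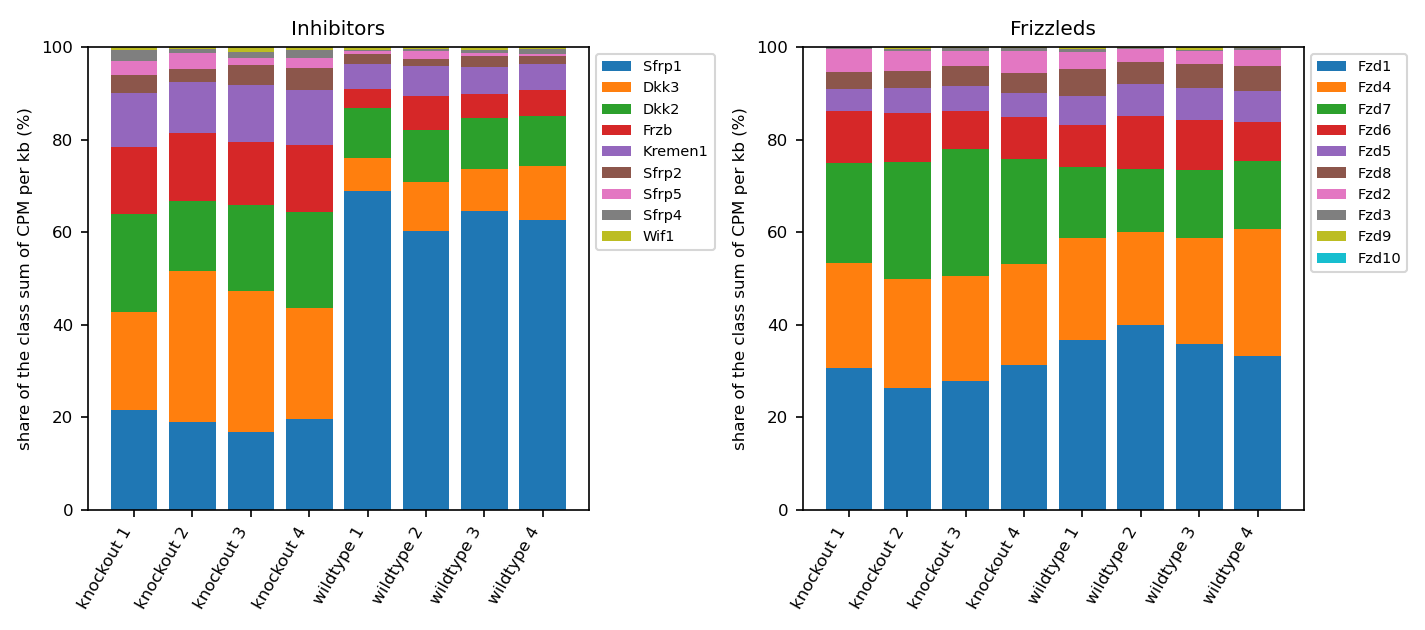
Share of each gene in the sum of CPM per kilobase of its class, in percent, for 9 inhibitors (left) and 10 frizzleds (right), with 1 bar per library and libraries labelled knockout to the left of wildtype-labelled ones. Sfrp1 fills 16.9% to 21.6% of the inhibitor bars in knockout and 60.2% to 68.9% in wildtype.

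Inside the cell, 1 of 9 genes rose and none fell. Axin2, a scaffold of the destruction complex and a widely used readout of canonical signalling because beta-catenin induces it, had 5.38, 6.50, 5.31 and 4.69 CPM in knockout-labelled libraries, against 3.99, 3.73, 4.08 and 3.03 CPM in wildtype-labelled ones. The groups did not overlap. Over all libraries it had 363 counts in those labelled knockout and 224 in wildtype-labelled ones. The log2 fold change was 0.56 ± 0.17 (SE; edgeR adjusted p = 0.0486). The call sat at the threshold and was lost without any 1 of the 8 libraries (adjusted p = 0.065, 0.151, 0.078 and 0.0594 without knockout 1, 2, 3 and 4, and 0.0729, 0.0936, 0.0754 and 0.119 without wildtype 1, 2, 3 and 4). It was also lost without the filter on low counts (0.0771), with a replicate block (0.0952), without knockout 1 and 4 together (0.0888) and with the clock score in the model (0.324). The ratio to stromal markers was 6.47 ± 1.63 CPM per 1000 CPM in knockout-labelled libraries and 7.64 ± 1.91 in wildtype-labelled ones (SD, n = 4 each; exact permutation p = 0.371). This ratio too depends on the markers summed. Stromal markers that rose had larger log2 fold changes than Axin2, and those that did not pass had smaller ones. Of the exon bases of Axin2, 3.8% overlap the antisense gene Gm11670.

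The other 8 intracellular genes did not pass. Ctnnb1, which encodes beta-catenin, had 623.2, 544.0, 600.8 and 557.0 CPM in knockout-labelled libraries, against 582.2, 586.6, 609.9 and 613.3 CPM in wildtype-labelled ones. The ranges overlap, and the log2 fold change was -0.04 ± 0.075 (SE; edgeR adjusted p = 0.766). Ctnnb1 was by far the most abundant of the 51 genes per kilobase, at 112.0 CPM in knockout-labelled libraries and 115.2 CPM in wildtype-labelled ones, and 14.6% of its exon bases overlap Ulk4 on the other strand. Its partners in the destruction complex had small differences, 0.04 ± 0.063 for Axin1, -0.07 ± 0.072 for Apc and -0.10 ± 0.059 for Gsk3b. The nuclear factors Tcf7, Lef1, Tcf7l1 and Tcf7l2 had 0.40 ± 0.28, 0.36 ± 0.22, 0.13 ± 0.12 and -0.23 ± 0.10 (adjusted p = 0.385, 0.312, 0.531 and 0.167). Within this class Lef1 was the lowest per kilobase, below Axin2.

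**Figure D3:**
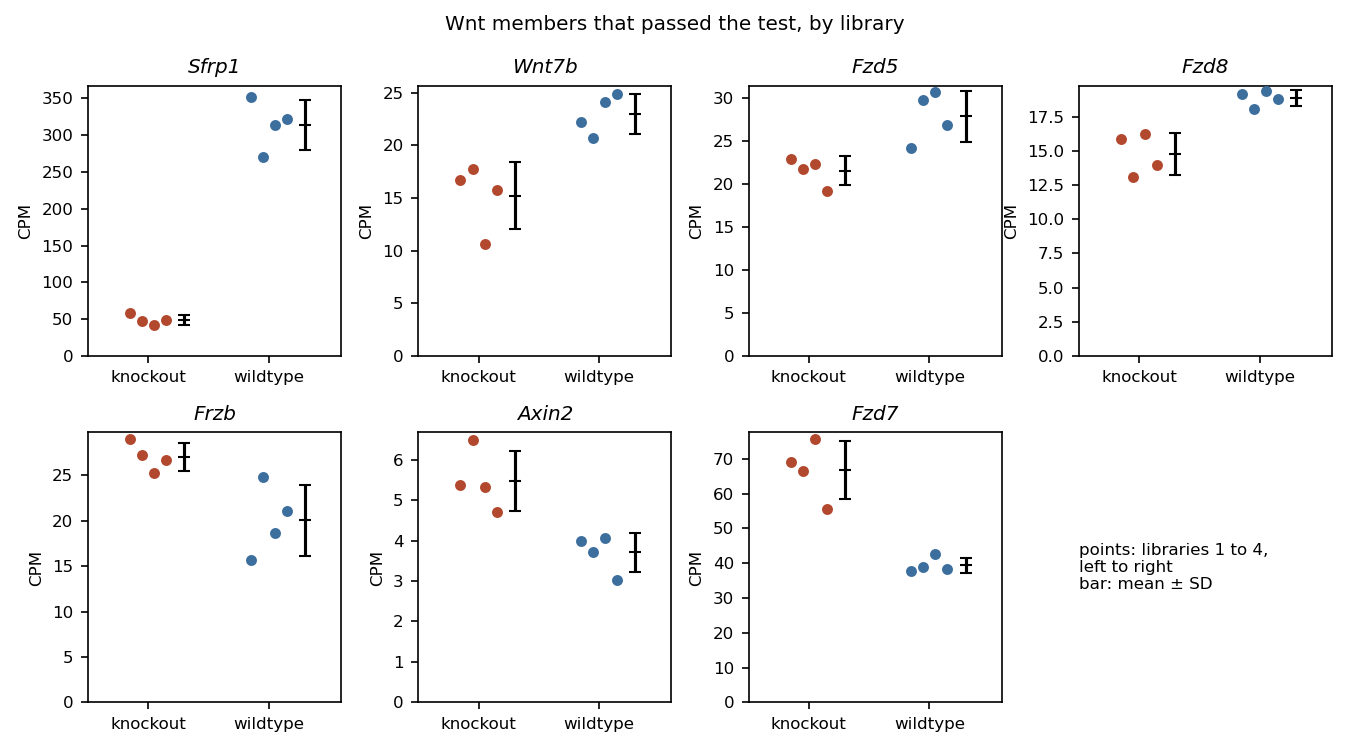
CPM of the 7 Wnt genes that passed the test, with 1 panel per gene and a linear axis from 0. Points are libraries 1 to 4, those labelled knockout left of wildtype-labelled ones, and bars give mean ± SD. Sfrp1 separates by several fold, Fzd7 clearly, and Frzb only narrowly.

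The upstream sequences of the 3 genes that rose are shown because AP-2 factors and TCF/LEF factors each read a short DNA motif. The letters are the 250 bases before the annotated transcription start, from RefSeq on GRCm38.p6, which is not the build of the counts. Fzd7 lies at chr1:59481897-59482146 on the plus strand, Frzb at chr2:80447397-80447646 on the minus strand and Axin2 at chr11:108920099-108920348 on the plus strand. Capitals mark a TCF/LEF motif in Fzd7 and an AP-2 motif in Frzb.
Fzd7: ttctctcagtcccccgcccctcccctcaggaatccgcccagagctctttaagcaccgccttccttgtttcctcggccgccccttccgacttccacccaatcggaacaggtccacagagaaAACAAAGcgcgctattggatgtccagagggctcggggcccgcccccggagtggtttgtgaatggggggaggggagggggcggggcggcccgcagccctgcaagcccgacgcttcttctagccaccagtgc
Frzb: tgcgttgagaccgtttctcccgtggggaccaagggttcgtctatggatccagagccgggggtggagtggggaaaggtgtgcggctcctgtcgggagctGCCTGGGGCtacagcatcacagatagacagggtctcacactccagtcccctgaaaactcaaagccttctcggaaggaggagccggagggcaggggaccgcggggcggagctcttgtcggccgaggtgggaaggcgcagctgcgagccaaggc
Axin2: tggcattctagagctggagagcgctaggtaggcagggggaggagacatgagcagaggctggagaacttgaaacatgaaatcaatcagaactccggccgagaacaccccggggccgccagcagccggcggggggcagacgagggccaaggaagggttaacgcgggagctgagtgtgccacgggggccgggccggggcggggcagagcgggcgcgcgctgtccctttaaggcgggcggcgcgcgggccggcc

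The AP-2 motif searched was GCCNNNGGC, which reads the same on both strands, whereas a TCF/LEF motif was searched on either strand in 4 spellings. The first spelling was CTTTGAA and the second was CTTTGAT. The third spelling searched was CTTTGTA and the last was CTTTGTT. Neither motif overlaps the other where shown. In Fzd7 the match AACAAAG begins 130 bases before the start, and in Frzb the match GCCTGGGGC begins 152 bases before it. The Axin2 window held neither motif. The table held 42 promoters of 32 of the 51 genes. The AP-2 motif was in 13 of these 42 (31%), against 13.7% of all 32851 promoters, and a TCF/LEF motif was in 5 (11.9%), against 14.8%. The differences between these shares were not tested, and the promoters were not matched for base composition. Promoters with the AP-2 motif belonged to Ctnnb1, Frzb, Fzd10, Fzd4, Gsk3b, Lgr4, Wnt11, Wnt4, Wnt5b, Wnt6 and Wnt9a, some with more than 1 promoter. Of these genes only Frzb was called, and Fzd10 and Wnt6 were not tested. Of all genes tested 11.9% were called, and so short a list cannot show a difference from that share. A match is a description of letters only. Sfrp1, Wnt7b and Fzd8 had no entry.

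Of 52 further pathway genes, 37 were tested, 1 rose and 2 fell, 8.11% against 11.9% of all genes. Sostdc1, a secreted antagonist of BMP and Wnt signals, had 65.4, 77.9, 65.6 and 65.0 CPM in knockout-labelled libraries, against 162.6, 151.1, 142.5 and 158.7 CPM in wildtype-labelled ones. No library of one group came near the other (log2 fold change -1.17 ± 0.079 (SE), edgeR adjusted p = 1.38e-05). Celsr2, an atypical cadherin of planar cell polarity, had 108.0, 102.8, 110.5 and 92.5 CPM in knockout-labelled libraries, against 146.5, 169.7, 157.2 and 165.3 CPM in wildtype-labelled ones (-0.63 ± 0.077, adjusted p = 0.000631). Both passed in all 18 other settings. Tle1, a Groucho co-repressor, had 25.2, 31.0, 28.2 and 27.4 CPM in knockout-labelled libraries, against 23.6, 19.8, 21.7 and 22.7 CPM in wildtype-labelled ones (0.35 ± 0.090, adjusted p = 0.0293). Its call was lost in 8 settings, namely without knockout 2, 3 or 4 (adjusted p = 0.0927, 0.0562 and 0.0609), without wildtype 2, 3 or 4 (0.0756, 0.0734 and 0.0546), with a replicate block (0.107) and with the clock score (0.46). The list's median was -0.02. Wls, the carrier that takes Wnts to the cell surface, had -0.16 ± 0.095, and the Dishevelled genes Dvl1, Dvl2 and Dvl3 had -0.10, 0.19 and -0.14.

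Of 20 genes known as targets of canonical Wnt signalling in some tissue, 16 were tested, and they moved both ways: 3 rose and 4 fell (43.8%, against 11.9% of all genes), with a median of 0.01. The list was chosen with earlier results of these data known, so this share is no independent evidence. Ccnd1, which encodes cyclin D1, had 108.0, 74.2, 68.0 and 80.0 CPM in knockout-labelled libraries, against 140.3, 176.4, 171.2 and 170.8 CPM in wildtype-labelled ones (log2 fold change -0.996 ± 0.138 (SE), edgeR adjusted p = 0.00167). Of its exon bases, 23.4% overlap LTO1 on the other strand. Prox1, a homeobox factor, fell by 1.32 ± 0.12 on the log2 scale, Ephb2, an ephrin receptor, by 0.66 ± 0.16 and Sp5, a zinc finger factor, by 0.44 ± 0.12 (adjusted p = 8.71e-05, 0.0206 and 0.0406), with overlapping CPM for Sp5. Cd44, a hyaluronan receptor, rose by 1.69 ± 0.34, Myc by 0.69 ± 0.16 and the Notch ligand Jag1 by 0.59 ± 0.075 (adjusted p = 0.0122, 0.0174 and 0.000815). Several of these genes answer to other pathways as well. Ccnd1, Prox1 and Jag1 passed in all 18 other settings, Myc not with the clock score (adjusted p = 0.155, range 0.00169 to 0.155) and Cd44 not without knockout 1 and 4 together (0.0595, range 3.91e-06 to 0.0595). Ephb2 was lost without knockout 4 (0.0607), wildtype 3 (0.0547) or wildtype 4 (0.0511), with a replicate block (0.0779), with the clock score (0.205) and without knockout 1 and 4 together (0.155). Sp5 was lost without knockout 1, 2 or 4 (0.0599, 0.108 and 0.101) or wildtype 1, 3 or 4 (0.086, 0.0978 and 0.0836), with library totals (0.0737), with the clock score (0.215) and without knockout 1 and 4 together (0.179). Nkd1 and Notum, feedback inhibitors often used beside Axin2 as readouts, had 0.42 ± 0.16 and -0.35 ± 0.12 and did not pass (adjusted p = 0.117 and 0.0883).

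**Figure D4:**
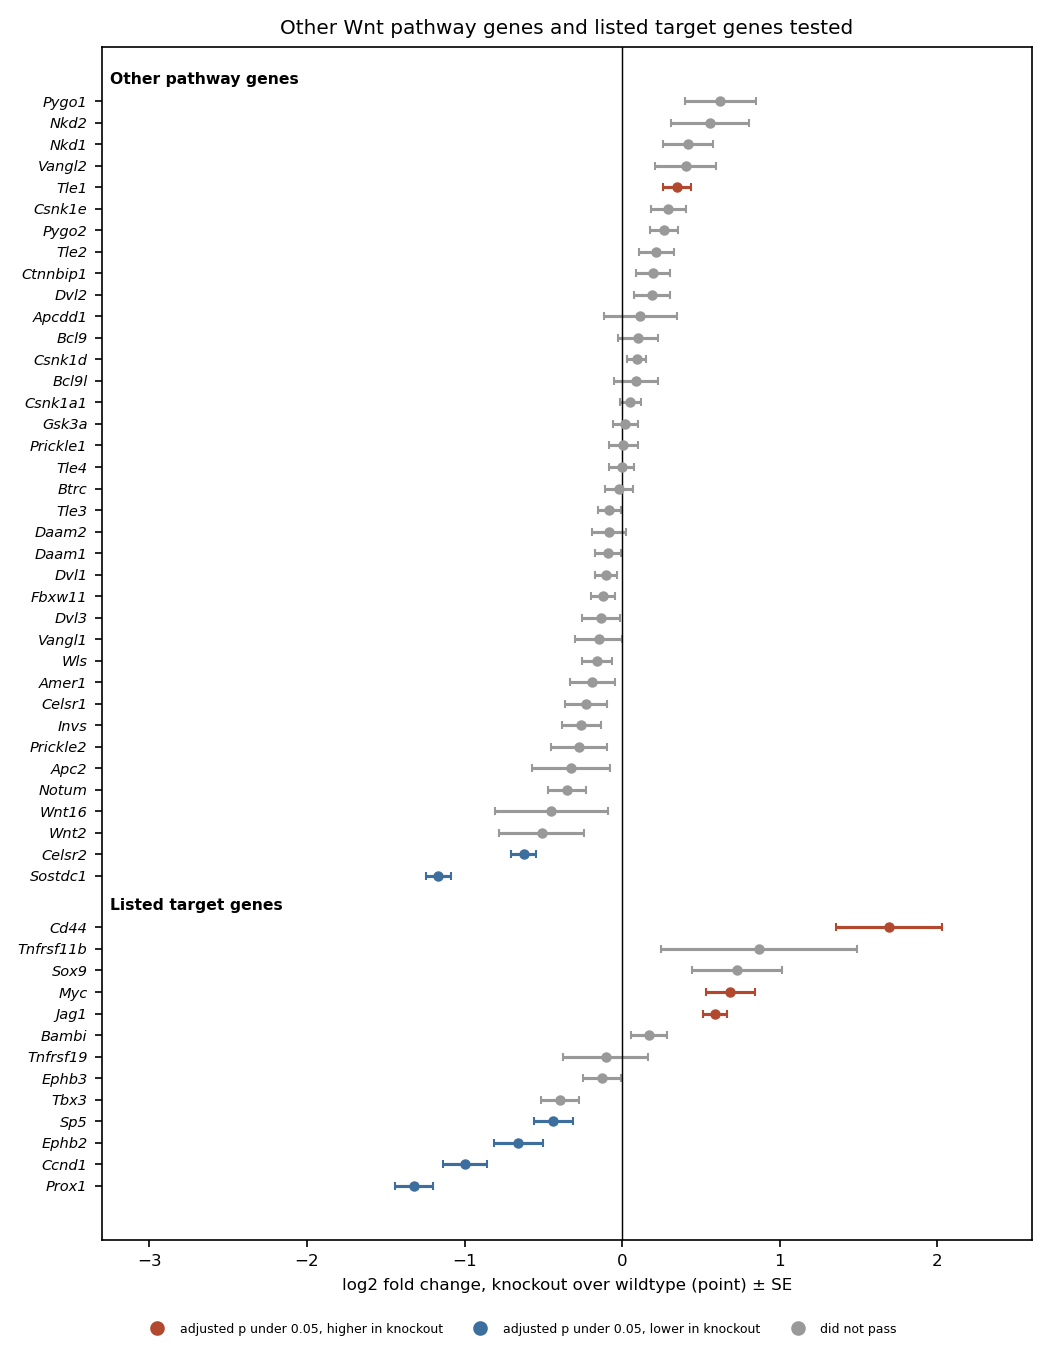
Log2 fold change of libraries labelled knockout over libraries labelled wildtype (points) with its standard error (bars) for the tested genes among 52 further Wnt pathway genes and 20 listed target genes, with genes on both lists drawn once. The target genes that passed lie on both sides of 0, 3 above and 4 below.

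Markers of other cell types moved with the groups as well. Of 10 macrophage markers 9 rose, with sums of 339.2 to 556.1 CPM in knockout-labelled libraries, against 186.4 to 231.8 CPM in wildtype-labelled ones. The marker that did not pass, Csf1r, had 106.8 ± 8.18 CPM in knockout-labelled libraries and 106.7 ± 10.1 CPM in wildtype-labelled ones (SD, n = 4 each). Of 10 injured tubule markers 8 rose and none fell, with sums of 3536 to 4280 CPM in knockout-labelled libraries, against 2250 to 3091 CPM in wildtype-labelled ones. Of the 2 that did not pass, 1 had a negative log2 fold change, -0.43. This list shares Sox9 with the target list and Krt20 with the urothelial list. Of 10 intercalated cell markers 7 rose and none fell, with sums of 1439 to 1755 CPM in knockout-labelled libraries, against 836.1 to 955.2 CPM in wildtype-labelled ones. Those that did not pass were Slc4a1, Kit and Atp6v1b1, with log2 fold changes of -0.20, 0.17 and 0.07. Of 10 urothelial markers 4 rose and none fell, with sums of 88.9 to 124.2 CPM in knockout-labelled libraries, against 67.4 to 96.9 CPM in wildtype-labelled ones. Of 10 proximal tubule markers 3 fell and none rose, and their sums did not overlap, at 9596 to 14358 CPM in knockout-labelled libraries, against 15712 to 18294 CPM in wildtype-labelled ones. Of 10 endothelial markers 3 fell and all 10 had negative log2 fold changes, with sums of 608.2 to 705.9 CPM in knockout-labelled libraries, against 696.2 to 903.0 CPM in wildtype-labelled ones. Of 10 podocyte markers 2 fell and none rose, with sums of 450.6 to 581.3 CPM in knockout-labelled libraries, against 532.9 to 710.3 CPM in wildtype-labelled ones. The part of all these cell types in the changes of the Wnt genes was not tested.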

How the data were processed

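Whole-kidney RNA was sequenced in 8 libraries. The deposited values are raw counts of reads per Ensembl gene, as the values themselves show, 1 file per library. STAR, HTSeq and edgeR and the build mm9 are named in the submitters' processing notes, with versions, annotation and counting mode not given in the sources used here. Per the labels' protocols the library kit is directional, yet the deposited files are named as not stranded, so strand does not separate reads of a gene from those of an antisense partner. Ulk4, LTO1 and Gm11670 are themselves among the counted genes, whereas AU022754 and Gm38058 are not. The counter's ambiguous row held 2.17% to 2.42% of the records, outside the count of every gene. Genes held 63.8% to 69.1% of the records, and the 5 counter summary rows were left out of every total and test.

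Of 37583 gene identifiers, 32860 were given a symbol by the supplied name table. From the deposited counts, genes were kept by filterByExpr (15228), scaled by TMM and fitted in edgeR 4.0.16 under R 4.3.3 with robust quasi-likelihood dispersions and no covariate. The test was two-sided and adjusted over all genes tested. CPM use the TMM-scaled totals of tested genes. CPM per kilobase use exon unions of GENCODE M21 on GRCm38, so lengths are approximate for mm9. For ratios to marker sums, an exact permutation test (two-sided) ran over all 70 assignments. DESeq2 1.42.0, limma 3.58.1 (voom) and 16 other settings were tried. The fit was tested on simulated data.

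The members, lists and doubted libraries were chosen with earlier results of these data known. Per-library values are given for every called member and the member of highest CPM in each role, and, chosen after their values were seen, for Dkk3. Replicate numbers are not tied to litters or days in the labels. The p-values set the group difference against the spread among these samples within groups. A litter or day shared within a group cannot be told apart from the group label.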

Additional observations from a re-analysis of the deposited data

Results flagged for a closer look

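In 46 groups of 4 CPM values of the genes described above, 2 had a library whose gap to its nearest neighbour filled most of the group's range, where chance gives about 1 in 20 groups. Sostdc1 was highest in knockout 2 at 77.9 CPM, where knockout 1, 3 and 4 had 65.0 to 65.6 CPM (gap over range 0.9533). Ccnd1 was lowest in wildtype 1 at 140.3 CPM, where wildtype 2, 3 and 4 had 170.8 to 176.4 CPM (gap over range 0.8458).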

How the results depend on the processing

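Of the 18 other settings, all kept the direction of the 7 called Wnt genes. The count of Wnt genes that rose, 3 in the reported fit, was 1 with a replicate block and 1 with the clock score in the model, and 1 to 3 when single libraries were left out. It reached 4 in other settings, such as library totals only, where Dkk3 also passed. The count that fell, 4 in the reported fit, was 1 with library totals only, 1 with a replicate block, 1 with the clock score, 1 without knockout 1 and 4 together, and 1 to 5 when single libraries were left out. Sfrp1 and Fzd7 were called throughout; the others sit near the threshold. Library totals moved the all-gene median of log2 fold changes to 0.11, and 76.5% of their calls were upward, against 52.2% with TMM; the cause was not tested. Over all genes, 1817 were called in the reported fit, 1094 with the block, 758 with the clock score, 912 without knockout 1 and 4, and 1076 to 1940 with single libraries left out. Depth limits what can be said of genes with under about 1 CPM, such as Wnt6, Wnt7a, Fzd9 and Fzd10. Replicate numbers did not pair the libraries, with correlations of same-numbered deviations from the group means of -0.253, -0.233, -0.032 and 0.134, and not every library correlated best with its own number.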
